A study of Mus musculus with 8 samples.

Results

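The genes described here belong to the amino-acid response that the transcription factor ATF4 drives, together with the cytosolic tRNA synthetases that share it. The list was chosen with earlier results of these data known, so counts of its members are not independent of these data. It held 41 symbols, named from what is known of the pathway. Of these, 40 matched a probe set that carries a single gene symbol, out of 18193 genes with such a probe set, and the brightest probe set over the 8 arrays stood for the gene. Pycr1 was not analysed here. All 40 matched members passed the filter on dim probe sets (above a floor, the array's 40th percentile, on both arrays of a group), which kept 13196 genes, and 38 of them did so in every group. Vldlr passed only through the CT26 groups, so it had to differ between the lines. Slc7a3 passed in every group but RAW alone.

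The values are log2 expression levels from 8 single-colour arrays. CT26, a mouse colon tumour epithelial line, and RAW264, a mouse macrophage line called RAW below, were each grown alone or in transwell co-culture with the other line, with CT26 cells in a well (1.5 ml) and RAW cells on a porous insert (0.5 ml). Both were kept in RPMI medium, wells and inserts were joined 8 hours after plating, and the experiment was carried out on 2 occasions; how long co-culture lasted is not given in the sources used here. Each line thus has a group alone and a group in co-culture, with 2 arrays in each of the 4 groups. Each group samples cultures of 1 established line and not animals. CT26 cells were lifted with trypsin and RAW cells were lysed directly on their inserts. Line therefore cannot be told apart from harvest, nor from culture in a well or on an insert with its volume.

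Of 15 macrophage markers, 15 lay above the floor in RAW alone and 9 in CT26 alone, where Ptprc, Itgam, Fcgr1, Tyrobp, Aif1 and Ctss were under it. The log2 of the summed macrophage markers was 17.20 to 17.32 in RAW alone and 10.86 to 10.94 in CT26 alone, and it was 10.78 to 10.83 in CT26 co-culture. The 12 epithelial markers summed to 8.76 in both arrays of RAW alone and to 8.73 to 8.82 in RAW co-culture, against 12.90 to 12.93 in CT26 alone. Of those 12, 6 were above the floor in CT26 alone and 2 in RAW alone. Krt20 read 11.53 and 11.55, Tjp1 11.62 and 11.67 and Krt18 10.18 and 10.20 in CT26 alone, and all 3 were under the floor in RAW alone, while Cdh1, Krt7, Cldn7, Ocln, Dsp and Vil1 were under it in CT26 too. Of 12 mesenchymal markers 9 were above the floor in CT26 alone and 7 in RAW alone. They summed to 15.95 to 16.13 in CT26 alone and 15.98 to 16.14 in CT26 co-culture. The sums were 14.49 to 14.82 in RAW alone and 14.14 to 14.53 in RAW co-culture. Col1a2 (13.52 and 13.59) and Fn1 (12.78 and 12.76) were high in CT26 alone, while Acta2 was not higher there than in RAW alone. Epcam was alike in the lines, at 6.92 and 6.82 in CT26 alone and 6.88 in both arrays of RAW alone. CT26 alone thus held mesenchymal as well as some epithelial markers. Neither line showed a clear gain in the other line's markers with co-culture. However, Vim (14.37 and 14.67 in RAW alone) weighed most in the RAW mesenchymal sum. Likewise Cd14 (10.19 and 10.29 in CT26 alone) weighed most in the CT26 macrophage sum. A small gain in other markers could be missed in these sums.

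ATF4 is the effector of the integrated stress response. Kinases that sense amino-acid shortage, unfolded protein, haem shortage or double-stranded RNA phosphorylate the initiation factor eIF2, general translation falls, and the Atf4 mRNA is translated better. ATF4 protein then binds composite C/EBP-ATF response elements with partners of the C/EBP family and raises genes of amino-acid synthesis, amino-acid uptake and tRNA charging, while targets such as Trib3 and Ppp1r15a feed back on the pathway. Because much of ATF4 control is translational, its mRNA level is not a measure of its activity.

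The promoters of the members were read for the core of that composite element, TGATGNAAN, on both strands, because it is the element through which ATF4 acts. RefSeq promoters of GRCm38.p6, from 250 bases before to 50 bases after the start of a transcript, were at hand for 32 of the 40 members. The motif was in 11 of the 32 (34.4%), against 1215 of 27025 genes (4.50%) in the whole table and 1299 of 32851 single promoters (3.95%). The members are known ATF4 targets by choice, so this share describes the list and is not independent of it. Sites of 10 of these members are given with 10 flanking bases on each side, in the direction of the motif and with the motif in capitals. The search fixed 7 of the 9 motif letters, so likeness of the capitals follows from the search.
Asns (chr6:7693214-7693242, minus strand): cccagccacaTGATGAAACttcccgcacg
Trib3 (chr2:152344029-152344057, plus strand): cccgcccggcTGATGTAAAcctgagctaa
Chac1 (chr2:119351038-119351066, minus strand): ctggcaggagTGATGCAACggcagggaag
Nupr1 (chr7:126625563-126625591, plus strand): aagccctgtcTGATGCAATctggcccttt
Vldlr (chr19:27216809-27216837, minus strand): ctaggagcgcTGATGCAACtattgctgct
Slc1a4 (chr11:20332700-20332728, plus strand): aggctggagaTGATGCAACgcaggaggca
Gars (chr6:55037960-55037988, minus strand): gcccggtgcaTGATGAAATagcgcagcca
Tars (chr15:11399656-11399684, plus strand): gctaaccagcTGATGCAACgggactcctg
Iars (chr13:49682126-49682154, minus strand): cgtctggaggTGATGCAATactgacagtg
Yars (chr4:129189896-129189924, plus strand): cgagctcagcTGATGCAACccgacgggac

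The sites lay from 197 bases before the start (Vldlr) to 18 bases after it (Trib3). In co-cultured RAW cells the 11 members with the motif had a median change of 0.22 log2 units and the 21 members without it 0.31. Among tested genes outside the list, 274 with the motif and 10296 without had the same median of 0.01. Stc2, Psat1, Atf4 and Ddit3 had no match in this window.

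The lines differed most at baseline. Vldlr is left out of the counts of calls and the median that follow, since its passing of the filter fixed its direction. Grown alone, RAW cells had lower levels of 27 of the other 39 members than CT26 cells and a higher level of 1, Yars (limma, Benjamini-Hochberg adjusted p under 0.05, without a block). Over all tested genes 17.6% were called lower and 17.0% higher in RAW alone. With the experiment as a block shared by the lines, a fit that compares the lines within each occasion, 33 members were lower and 2 higher, against 27.4% and 25.5% of all genes. The median difference of the 39 members, RAW alone minus CT26 alone, was -1.04 log2 units, and that of all genes was -0.047. RAW alone was lower within both experiments in 34 of the 39 and higher in 3, against 45.3% and 37.4% of all genes. In 34 members, Vldlr among them, both RAW alone arrays lay under both CT26 alone arrays, and in 3 (Cth, Cbs and Yars) above them, against 37.1% and 30.2% of all genes. In such bulk samples fewer cells that express a gene and less of its RNA per cell cannot be told apart.

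Among regulators and feedback genes, 5 of 6 were called lower in RAW alone. Atf4 stood at 13.36 and 13.22 in CT26 alone (experiments 1 and 2) and at 12.55 and 12.14 in RAW alone. The difference was -0.95 ± 0.18 log2 units (SE, adjusted p = 0.00619), and the groups did not overlap. Trib3, a pseudokinase that restrains ATF4 and AKT signalling, stood at 11.43 and 10.67 in CT26 alone and at 8.12 and 7.33 in RAW alone (-3.32 ± 0.54, adjusted p = 0.00304). Ppp1r15a, which directs a phosphatase to eIF2, had 10.79 and 10.94 against 9.43 and 8.65 (-1.82 ± 0.25, adjusted p = 0.00140). The stress regulator Nupr1 (-1.56 ± 0.22) and the bZIP partner gene Cebpg (-1.37 ± 0.16) were lower as well. Dimmer probe sets differed by only -0.55 and -0.32 for Cebpg, and by -1.6 for Nupr1. Ddit3, which encodes CHOP, had 9.84 and 9.49 against 9.24 and 8.25 without passing (-0.92 ± 0.39, adjusted p = 0.118 without a block, 0.00261 with the shared block). A dimmer probe set of Ddit3 showed a difference of only -0.08.

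Targets outside amino-acid metabolism held some of the widest gaps between the lines. Ddit4, an inhibitor of mTORC1, had 9.88 and 9.80 against 5.61 and 6.44, a 14.1-fold lower level in RAW (-3.82 ± 0.32, adjusted p = 0.000111). The 5.61 was near the floor and under the array medians (5.88 to 5.94), so the size of this fold is uncertain. Chac1, an enzyme that breaks down glutathione, had 9.73 and 10.25 against 6.97 and 7.72 (-2.65 ± 0.45, adjusted p = 0.00370). Sesn2, a leucine sensor, was lower too (-1.21 ± 0.12). The secreted glycoprotein gene Stc2 did not follow them, with 7.86 and 7.61 in CT26 alone and 7.82 and 8.17 in RAW alone, and overlapping groups (0.26 ± 0.16, adjusted p = 0.266). Vldlr, a lipoprotein receptor gene, had 11.16 and 10.86 in CT26 alone. In RAW alone it read 4.08 and 4.20, which is less than the floor (5.21 to 5.28 by array), so no size or test of that difference is given.

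All 7 tested enzymes of serine, folate, asparagine and proline synthesis were called lower in RAW alone. The differences of the serine pathway were -1.75 ± 0.12 for Phgdh, -1.62 ± 0.20 for Psph and -1.24 ± 0.17 for Psat1, and those of the mitochondrial folate enzymes Mthfd2 and Shmt2 -1.34 ± 0.16 and -1.12 ± 0.26. Asns, the asparagine synthetase gene, had 13.34 and 13.35 in CT26 alone and only 11.75 and 11.67 in RAW alone (-1.63 ± 0.18, adjusted p = 0.000491), and Aldh18a1, of proline synthesis, had -0.88 ± 0.27. The transsulfuration enzymes, which make cysteine from homocysteine, went the other way without passing in the fit without a block. Cth had 5.93 and 5.78 in CT26 alone and 7.16 and 6.27 in RAW alone (0.86 ± 0.41, adjusted p = 0.156 without a block, 0.0287 with the shared block), at 1.23 and 0.49 in the experiments, and Cbs 6.57 and 6.52 against 6.72 and 6.77 (0.20 ± 0.14, adjusted p = 0.324).

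Of the 7 amino-acid transporters, 3 were called lower in RAW alone, and 6 with the shared block. Slc1a4, a transporter of alanine, serine and cysteine, had 9.78 and 9.11 against 7.19 and 7.06, a 4.99-fold lower level in RAW (-2.32 ± 0.23, adjusted p = 0.000294). Slc7a5, the light chain of the leucine transporter, differed by -1.31 ± 0.39, while its heavy chain gene Slc3a2 had nearly equal levels in the lines (-0.06 ± 0.21, adjusted p = 0.853). Slc38a2 passed at -0.43 ± 0.12. The glutamine transporter gene Slc1a5 had -0.40 ± 0.22 on its brightest probe set and 0.19 on another, and the cationic transporters Slc7a1 and Slc7a3 had -0.51 ± 0.18 and -0.39 ± 0.13 without passing.

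Of the 12 synthetase members, 9 were called lower in RAW alone, from -1.29 ± 0.11 for Cars to -0.63 ± 0.11 for Iars, and with the shared block Eprs and Mars1 were as well. A much dimmer probe set of Cars differed by only -0.16. Yars was the exception, at 9.32 and 9.35 in CT26 alone and at 9.94 and 9.84 in RAW alone (0.55 ± 0.14, adjusted p = 0.0180), and without a block this call was lost when any 1 of the 4 arrays grown alone was left out (adjusted p = 0.0512 to 0.0901). Xpot, the export receptor of tRNA, had -0.10 ± 0.20 (adjusted p = 0.742).

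**Figure D1:**
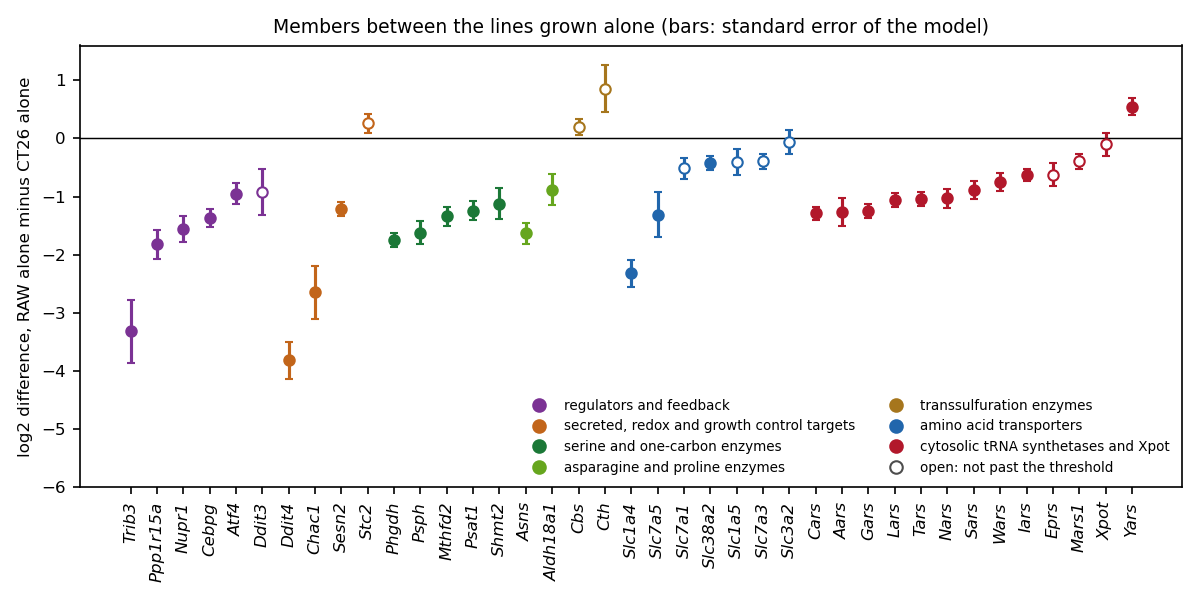
Log2 difference of 39 members between RAW alone and CT26 alone (points, with the standard error of the model without a block, 2 arrays a group), coloured by role, with open points where adjusted p did not pass 0.05. Vldlr, under the floor in RAW, is not plotted. Ddit4 lies lowest at -3.82, the enzymes of serine, folate, asparagine and proline synthesis lie between -1.75 and -0.88, and Yars is the one filled point above 0, at 0.55.

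In co-cultured RAW cells the members lay higher, but by little. In 36 of 40 members co-culture was above alone in both experiments, against 32.5% of all genes, and in 1, Xpot, it was below in both, against 29.1%. The median change was 0.30 log2 units (0.30 in experiment 1 and 0.26 in experiment 2), against 0.008 over all genes. Both co-culture arrays lay above both arrays of RAW alone in 21 members, as in 14.2% of all genes. Without a block, limma called 0 members at an adjusted p under 0.05, where 0.250% of all genes were called. In that fit 6 members had an unadjusted p under 0.05, as did 694 of 13196 genes. With the shared block 2 members, Stc2 and Trib3, were called higher, where 0.508% of all genes were called higher. With a block per line, which lets each line shift on its own between occasions, 7 rose (Stc2, Trib3, Cth, Chac1, Psat1, Nars and Atf4), where 1.55% of all genes were called higher, and 0 fell, where 2.01% of all genes were called lower. Of these calls Stc2 held whichever of the 8 arrays was left out, while Atf4 and Nars were lost without any 1 of them. In such fits the line that lost an array rests on 1 experiment, and the spread comes from the other line. Holding or losing a call there says little about how well a change repeats in RAW. Trib3, Psat1 and Cth were lost without either RAW array of experiment 1, where 4 members were called, and Chac1 without either RAW array of experiment 2. The experiment numbers pair the samples, so the adjusted p that follow for RAW are those with a block per line unless another fit is named. Without a block the adjusted p was above 0.05 for every member. The values named next are changes, co-culture minus alone, with the standard error without a block.

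Stc2 rose most of the 40. It stood at 7.82 and 8.17 in RAW alone (experiments 1 and 2) and at 9.17 and 9.03 in co-culture. That is a 2.15-fold rise (1.11 ± 0.16, adjusted p = 0.00936, and 0.0660 without a block). The groups were well apart and the rise was seen in both experiments, at 1.35 and 0.87. In CT26 cells Stc2 had 7.86 and 7.61 alone and 7.53 and 7.63 in co-culture, so RAW co-culture held the highest level of the 4 groups. A second bright probe set of Stc2 changed by 1.14 in RAW and a dimmer one by 0.35.

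Of the regulators, Trib3 and Atf4 passed with a block per line. Trib3 went from 8.12 to 9.15 in experiment 1 and from 7.33 to 8.00 in experiment 2 (0.85 ± 0.54, adjusted p = 0.0183, and 1.00 without a block). RAW alone in experiment 1 lay above RAW co-culture in experiment 2, so the groups overlap unless arrays are compared within an experiment. Atf4 went from 12.55 to 12.93 and from 12.14 to 12.60 (0.42 ± 0.18, adjusted p = 0.0471, and 0.963 without a block), and its groups did not overlap. Dimmer probe sets changed by 0.36 and 0.20 for Atf4 and by 0.92 for Trib3. Ddit3 went from 9.24 to 9.67 and from 8.25 to 9.20 (0.69 ± 0.39, adjusted p = 0.0638), with overlapping groups. Ppp1r15a had changes of 0.17 and 0.69 in the experiments, while Nupr1 (0.08 ± 0.22) and Cebpg (0.01 ± 0.16) stayed near 0.

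Among the other targets Chac1 passed. It went from 6.97 to 7.50 and from 7.72 to 8.67 (0.74 ± 0.45, adjusted p = 0.0209, and 1.00 without a block), and its groups overlapped. Sesn2 went from 7.87 to 8.23 and from 7.77 to 8.03 (0.31 ± 0.12, adjusted p = 0.131, and 0.906 without a block). Ddit4 differed between the experiments, with changes of 1.28 and 0.07 (adjusted p = 0.251), the first from a dim 5.61 in RAW alone. Vldlr lay under the floor in RAW alone and in co-culture, so its change of 0.22 is not well measured.

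All 7 tested enzymes of serine, folate, asparagine and proline synthesis were higher in both experiments, and 1 of them, Psat1, passed. Psat1, the aminotransferase of serine synthesis, went from 12.38 to 13.19 and from 12.29 to 12.75, with no overlap of the groups (0.63 ± 0.17, adjusted p = 0.0291, and 0.459 without a block). Another bright probe set of Psat1 changed by 0.42. Shmt2 had 0.44 ± 0.26 (adjusted p = 0.0512), Psph 0.42 ± 0.20 (0.0639) and Phgdh 0.31 ± 0.12 (0.129). Mthfd2 went from 10.50 to 11.02 and from 10.84 to 11.20 (0.43 ± 0.16, adjusted p = 0.0687, and 0.852 without a block). Asns went from 11.75 to 12.41 and from 11.67 to 11.85, so its change was 0.66 in experiment 1 and 0.18 in experiment 2 (0.42 ± 0.18, adjusted p = 0.135, and 0.977 without a block). Aldh18a1 had 0.26 ± 0.27. Cth, the enzyme that releases cysteine, went from 7.16 to 7.88 and from 6.27 to 6.74 (0.59 ± 0.41, adjusted p = 0.0232, and 1.00 without a block). Both RAW co-culture arrays lay above all 4 CT26 arrays, as both arrays of RAW alone already did. Cbs, the enzyme before Cth, had 0.02 ± 0.14.

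All 7 transporters were higher in both experiments and 0 of them passed, with changes from 0.16 ± 0.12 for Slc38a2 to 0.36 ± 0.23 for Slc1a4. With a block per line 4 transporters had an unadjusted p under 0.05, as did 2418 of 13196 genes. The transporters' probe sets disagreed in size: other bright probe sets of Slc1a4 changed by 0.77 and 0.70, and another of Slc38a2 by 0.54. Of the 12 synthetases 11 were higher in both experiments and 1 passed, and their median was 0.20. This was Nars, which charges asparagine tRNA and went from 12.20 to 12.64 and from 11.90 to 12.39 without overlap (0.47 ± 0.16, adjusted p = 0.0356, and 0.766 without a block). A nearly as bright probe set of Nars changed by 0.28. Wars, which charges tryptophan tRNA and is also known as an interferon-induced gene, had 0.35 ± 0.16 (adjusted p = 0.0936), and its other 3 probe sets changed by 0.27 to 0.33. Aars had 0.28 ± 0.24, Gars 0.21 ± 0.12, Sars 0.21 ± 0.15, Tars 0.20 ± 0.12, Cars 0.19 ± 0.11 and Yars 0.18 ± 0.14. Iars, Mars1, Eprs and Lars had 0.07 or less, and of these Mars1 had opposite signs in the experiments. Xpot had -0.14 ± 0.20, while a nearly as bright probe set of it had 0.19.

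**Figure D2:**
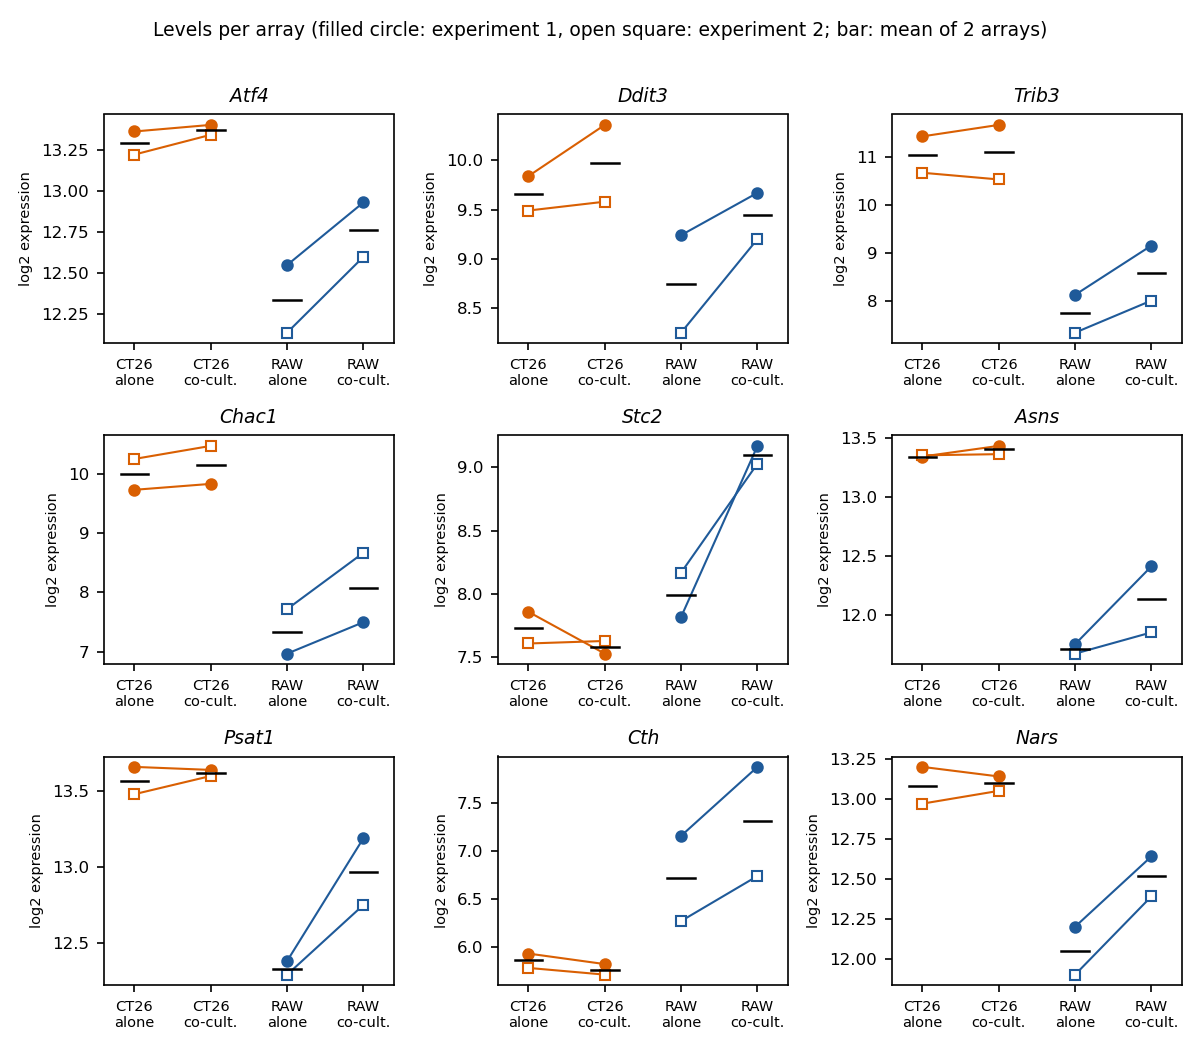
Log2 level on each of the 8 arrays for 9 members, with lines joining the arrays of 1 experiment (filled circles experiment 1, open squares experiment 2) and bars at group means. Each panel has its own axis. Co-culture lies above alone in RAW in each experiment for all 9, Atf4, Psat1, Nars and Asns in RAW co-culture remain under CT26, and Stc2 in RAW co-culture is above every CT26 array.

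The members' levels in co-cultured RAW cells mostly remained under those of CT26. In 32 of 40 members both RAW co-culture arrays lay under both CT26 co-culture arrays, against 35.0% of all genes. These include Vldlr, whose direction the filter fixed. In 3 members, Stc2, Cth and Yars, they lay above, against 30.5%.

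Co-cultured CT26 cells showed no such shift. The median change of the members was 0.04 log2 units (-0.012 in experiment 1 and 0.072 in experiment 2), against -0.012 over all genes. In 13 members co-culture was above alone in both experiments and in 4 below, against 23.8% and 30.1% of all genes. The groups did not overlap in 4 higher members (Ppp1r15a, Asns, Slc7a3 and Wars) and 1 lower (Yars), against 9.69% and 11.3% of all genes. Limma called 0 members in any of the 3 fits (no block and either kind of block), as it called 0% of all genes, and 0 had an unadjusted p under 0.05 in any of them. Changes ran from -0.21 ± 0.23 for Slc1a4 to 0.34 ± 0.32 for Ddit4.

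In CT26, Atf4 went from 13.36 to 13.40 in experiment 1 and from 13.22 to 13.34 in experiment 2 (0.08 ± 0.18), and Asns from 13.34 to 13.43 and from 13.35 to 13.36 (0.05 ± 0.18). Trib3 moved in opposite directions, from 11.43 to 11.67 and from 10.67 to 10.53 (0.05 ± 0.54). Ddit3 went from 9.84 to 10.36 and from 9.49 to 9.58 (0.31 ± 0.39), and Ddit4 from 9.88 to 10.50 and from 9.80 to 9.87, so most of both changes came from experiment 1. Among the largest moderated statistics were also Slc7a3, at 5.57 and 5.61 alone and 5.70 and 5.85 in co-culture (0.19 ± 0.13), Slc7a1, at 11.81 and 11.86 against 11.84 and 12.12 (0.14 ± 0.18), Stc2 (-0.15 ± 0.16) and Slc1a4, at 9.78 and 9.11 against 9.42 and 9.06. Averaged over its probe sets, Slc7a1 had -0.05. Adjusted p was 1.00 for each of these without a block and at least 0.899 with a block per line.

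**Figure D3:**
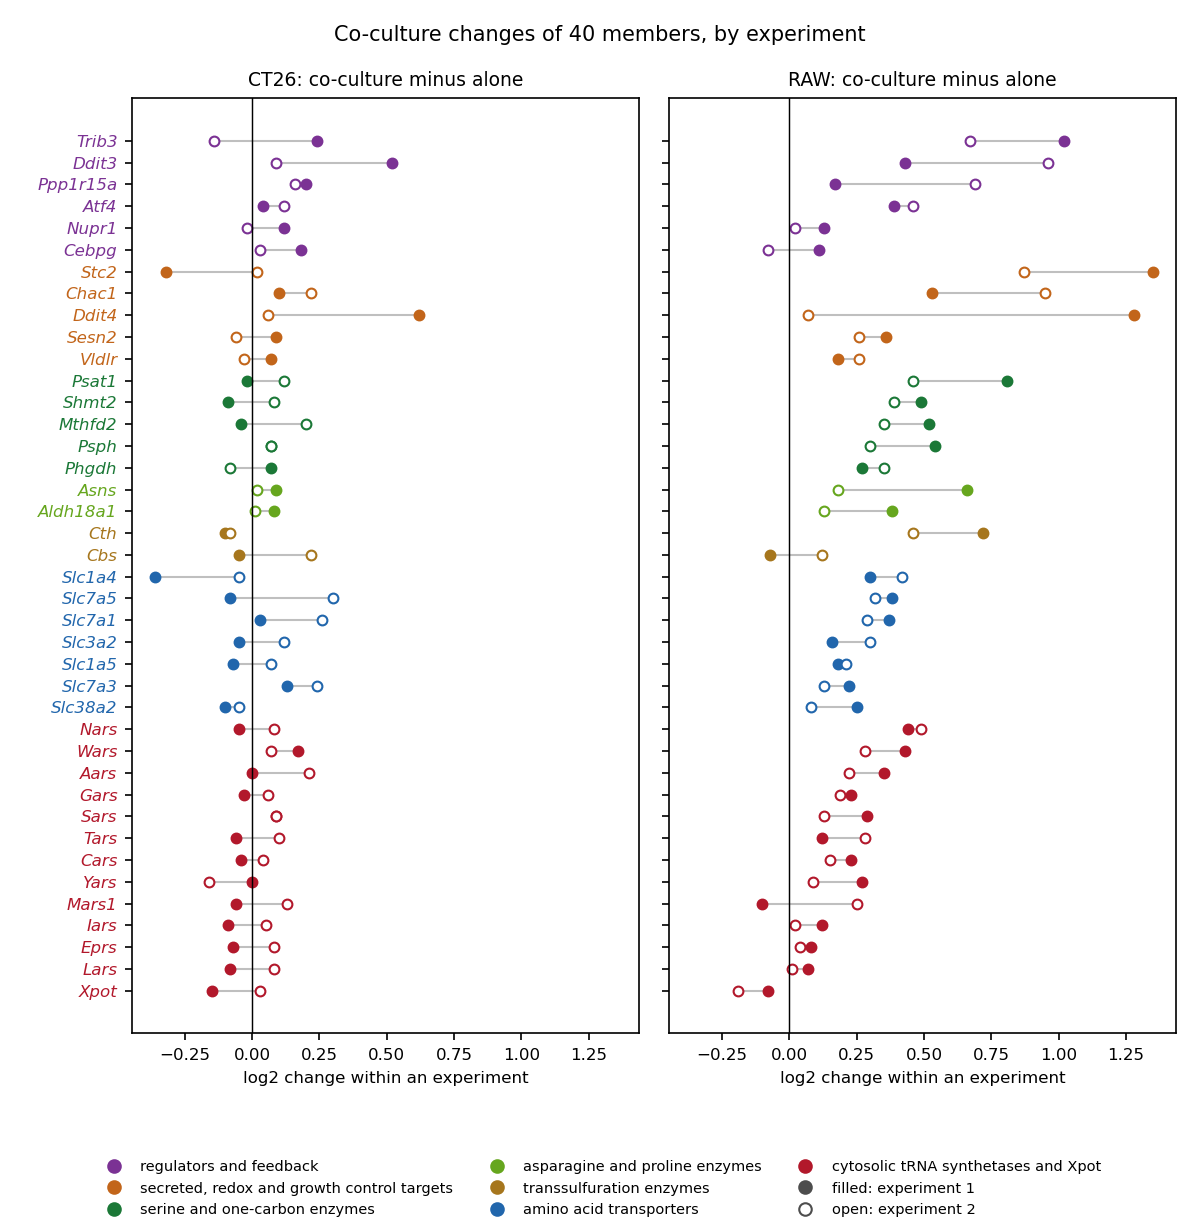
Log2 change of each of the 40 members in co-culture within experiment 1 (filled) and experiment 2 (open), for CT26 (left) and RAW (right), coloured by role. In RAW 36 members lie above 0 in both experiments, with Stc2 at 1.35 and 0.87, while in CT26 13 do so and the points lie on both sides of 0.

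The difference between the lines' responses was itself tested, as the RAW change minus the CT26 change. Its median over the members was 0.23 log2 units, against 0.020 over all genes, and it was above 0 in both experiments in 30 members and below 0 in 2, against 34.1% and 26.7% of all genes. It did not pass for any member: limma called 0 without a block (2 at an unadjusted p under 0.05), 0 with the shared block, and 0 with the block per line (12 at an unadjusted p under 0.05). Of all genes 0.00758%, 0.0834% and 0.743% were called in these fits. An unadjusted p under 0.05 was reached by 328 of 13196 genes without a block and by 1508 with the block per line. The largest difference among the members was that of Stc2, at 1.26 ± 0.23 (adjusted p = 0.492 without a block and 0.0515 with a block per line). Trib3 had 0.80 ± 0.76 (0.142 with a block per line), Psat1 0.58 ± 0.23 (0.204), Slc1a4 0.57 ± 0.33 (0.197), Nars 0.46 ± 0.23 (0.205), Ddit3 0.39 ± 0.55 (0.549), Asns 0.37 ± 0.26 (0.487), Atf4 0.34 ± 0.26 (0.340) and Phgdh 0.32 ± 0.17 (0.407). Phgdh stood at 13.36 and 13.57 in CT26 alone, 13.43 and 13.49 in CT26 co-culture, 11.78 and 11.66 in RAW alone and 12.05 and 12.01 in RAW co-culture. The calls in RAW therefore do not show that a single member responded differently in the lines.

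Other genes of the pathway came from related lists. Of 17 tested further ATF4 targets, 11 were higher in each experiment in co-cultured RAW cells and 2 lower. Of all genes 32.5% were higher and 29.1% lower in both experiments. The median of these targets was 0.18. With a block per line 1 target was called, where 1.55% of all genes were called higher and 2.01% lower. That was Got1, a cytosolic aspartate aminotransferase, which went from 10.55 to 11.24 and from 10.72 to 11.13 (0.55 ± 0.12, adjusted p = 0.0343, and 0.309 without a block). Aldh1l2, of mitochondrial folate metabolism, had 0.53 ± 0.14 and Pck2 0.56 ± 0.19 without passing. Slc7a11, the cystine importer and also a target of NRF2, had -0.67 ± 0.25 (adjusted p = 0.0752 with a block per line). The other 7 tested cytosolic synthetases had a median of 0.12 and the 16 mitochondrial ones 0.078, against 0.20 for the 12 members, and 0 of either list were called in any fit. The 3 scaffold genes of the multisynthetase complex had 0.18 to 0.21, with 0 called.

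The kinases that act on eIF2 did not move together in RAW. Eif2ak2, an interferon-stimulated gene, encodes the kinase PKR, which senses double-stranded RNA. It was called without a block, where 0.167% of all genes were called higher, and it was 1 of 15 tested genes of its list. It went from 8.68 to 9.84 and from 8.66 to 10.07, a 2.45-fold rise (1.29 ± 0.13, adjusted p = 0.0257). In CT26 it had 8.62 and 8.55 alone and 9.01 and 8.81 in co-culture (0.32 ± 0.13, adjusted p = 1.00). Eif2ak3, the kinase of the endoplasmic reticulum (-0.04 ± 0.11), Eif2ak4, the amino-acid sensor GCN2 (-0.06 ± 0.19), and Eif2ak1, the haem-regulated kinase (-0.03 ± 0.32), had changes near 0. Of 18 genes of the ATF6 and XBP1 arm 1 was called in RAW, Herpud1 (0.51 ± 0.26, adjusted p = 0.0221 with the block per line, 1.00 without a block), and the median was 0.10. With the block per line 1.55% of all genes were called higher and 2.01% lower. Hspa5, the chaperone BiP, had 0.15 ± 0.12 and Xbp1 0.00 ± 0.17.

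Between the lines grown alone the medians of the related lists differed in sign. The further ATF4 targets had -0.60 and the mitochondrial synthetases 0.28. Over all tested genes 17.6% were called lower and 17% higher in RAW alone without a block, and 27.4% and 25.5% with the shared block. Of the further ATF4 targets 8 were called lower and 3 higher in RAW alone without a block, with Atf5 at -3.95 ± 0.34 and the sodium-coupled transporter gene Slc38a1 at 4.05 ± 0.24. Of the 7 other cytosolic synthetases 1 was called lower and 1 higher without a block, and 5 lower and 1 higher with the shared block, with a median of -0.56. Of the 16 mitochondrial ones 2 were lower and 3 higher without a block, and 4 and 6 with the shared block. Without a block, the counts of both synthetase lists, and of further targets called higher, were near the shares of all genes. Of the 18 chaperones and degradation genes of the endoplasmic reticulum 8 were called higher in RAW alone and 0 lower (13 and 0 with the shared block), with a median of 0.56, among them Sdf2l1 at 2.73 ± 0.18 and Xbp1 at 1.70 ± 0.17. CT26 alone was thus higher in most members and RAW alone in the called genes of the ATF6 and XBP1 arm.

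**Figure D4:**
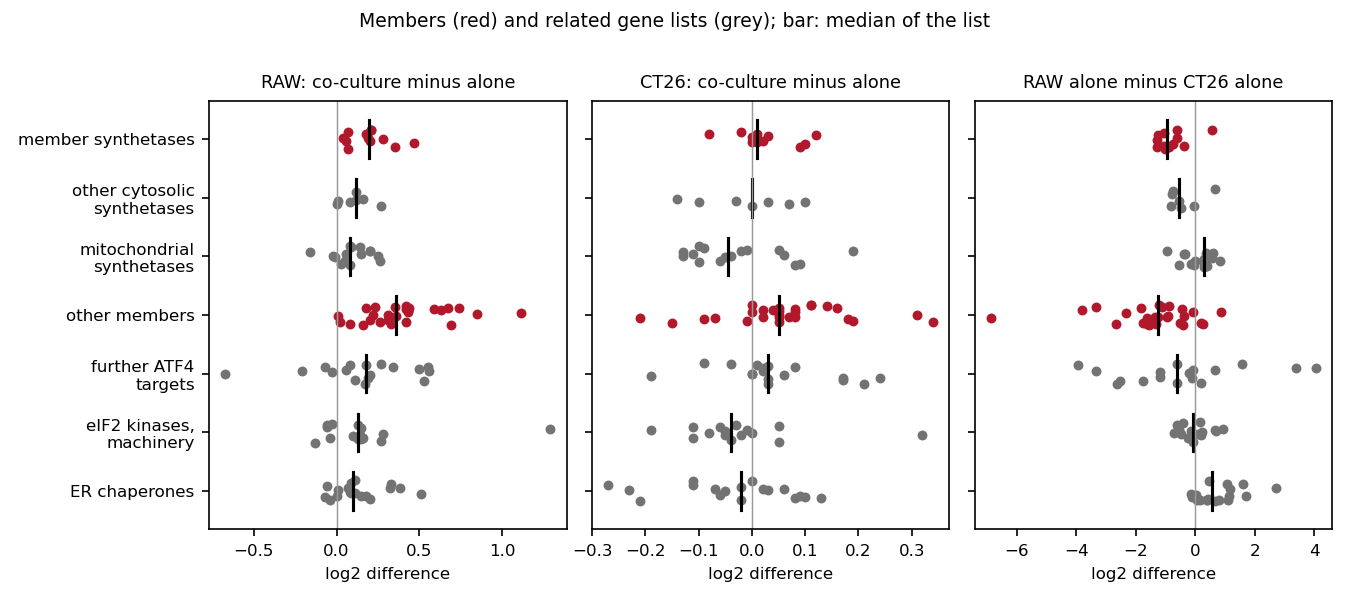
Log2 differences of single genes (points) and the median of each list (bar) for the members (red) and related lists (grey), in RAW co-culture, CT26 co-culture and RAW alone minus CT26 alone. The panels have different axes, and the lowest point of the other members in the third panel is Vldlr, which is under the floor in RAW. Member synthetases have medians of 0.20, 0.01 and -0.96, and ER chaperones 0.10, -0.017 and 0.56.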

How the data were processed

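Total RNA of 8 samples (biotin-labelled cRNA from 5 µg) was measured on 1 array each. The deposited values are log2 expression values made by the authors: the submitters' processing notes name affy and RMA, and no version was given in the sources used here. RMA compresses low signals, so folds of dim genes are understated. Gene names came from GEO's platform annotation (34945 with 1 symbol, 932 with several and 9160 without one; 64 of 45101 were controls). Genes entered the test when their probe set exceeded each array's 40th percentile on both arrays of at least 1 group. Group means were fitted with limma 3.58.1 in R 4.3.3 over the 8 arrays, two-sided, with Benjamini-Hochberg adjustment over 13196 genes; errors are standard errors of that model. Without a block, p-values set a difference against the spread between 2 occasions. With the shared block, a shift common to all groups is first taken out of that spread. With a block per line, the spread is how far the co-culture change differed between the occasions, pooled over both lines. The number of arrays limits the precision.

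The design text says that the experiment was run on 2 occasions, and the departures from group means of arrays with the same number correlated at 0.484 to 0.765 across genes in all pairs of groups, so the numbers pair the samples. The main fit has no block, and fits with a block shared by the lines or per line were alternatives. Beside the comparison of the lines grown alone only the shared block is given, since a block per line takes each line's own shift between occasions out of its error. The fits without a block and with a block per line were tested on simulated data. Those data held no shift between occasions, so they do not test how a block deals with one. The members, lists and tests were chosen with earlier results of these data known. Arrays are given for Atf4, Asns, Ddit3 and Trib3, members called in a co-culture contrast, the 5 largest moderated statistics in each and up to 6 called differences in each direction between the lines; context genes are those called or among the 3 largest statistics of a list. Promoter sites are shown for 10 of the 11 members with the motif (the other is not reported here), more than the rule asked for, a choice made after their values were seen, as was naming the other members.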

Additional observations from a re-analysis of the deposited data

Results flagged for a closer look

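The eIF2 kinase gene Eif2ak2 had different co-culture effects in the lines by the test of the difference itself. The RAW change minus the CT26 change was 0.97 ± 0.19 log2 units (SE), at 0.78 in experiment 1 and 1.16 in experiment 2. It passed in limma with an experiment block per line (adjusted p = 0.0342) and not without a block (adjusted p = 0.563) or with a shared block (0.185).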

How the results depend on the processing

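The count of members called in RAW co-culture was 0 without a block, 2 with a shared replicate block and 7 with a replicate block per line, which also changed the single calls given in the report. It was 4 to 6 with a block per line and 1 array left out, an alternative chosen after seeing the data, in which Ddit3, Ppp1r15a, Ddit4 or Asns entered in some cases; each line's change then rests on 1 experiment where its array is left out, and the spread comes from the other line. In that alternative the count for the difference was 0 to 1 (Stc2, without either RAW array of experiment 2), and the medians were -0.012 to 0.072 in CT26 and 0.257 to 0.297 in RAW. Without a block, leaving out 1 array breaks the pairing and gave medians of -0.006 to 0.075 in CT26, 0.215 to 0.297 in RAW and -1.11 to -1.022 between the lines grown alone (here over all 40), with 24 to 28 members called there. In RAW, without the co-culture array of experiment 1, Trib3 had 0.27, Cth 0.02 and Psat1 0.42, without that of experiment 2 Chac1 had 0.16, and without RAW alone in experiment 2 Atf4 had 0.22. Over all arrays left out in turn the RAW change was 0.20 to 1.19 for Ddit3 and 0.15 to 0.70 for Asns, and the difference between the responses 0.09 to 0.64 for Asns, 0.14 to 0.55 for Atf4, 0.22 to 1.37 for Trib3 and 0.23 to 0.90 for Slc1a4. Between the lines the median was -1.003 after cyclic loess normalization, -1.123 with a floor at the 60th percentile and -0.927 with probe sets averaged. Slc7a1 in CT26 turned to -0.05 with probe sets averaged. Leaving out arrays gave -0.54 to 0.13 for Slc1a4, -0.08 to 0.70 for Ddit3 and -0.52 to 0.62 for Trib3 in CT26, and -0.11 to 0.88 for the difference of Ddit3. The cause was not tested. No other setting moved a count of called members by over 1.5 times. Vldlr in RAW and Slc7a3 lie near or under the floor. Ddit4 in RAW alone of experiment 1 and Cth in CT26 were dim as well.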

Other observations

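The experiments differed in the members as well. From experiment 1 to experiment 2, 12 of the 40 members were higher and 14 lower in all 4 groups, against 24.9% and 21.8% of all tested genes. The leucine transporter gene Slc7a5 was higher in experiment 2 by 0.57 (alone) and 0.94 (co-culture) log2 units in CT26 and by 0.63 and 0.56 in RAW. Its partner Slc3a2 had a mean shift of 0.32, the glutamine transporter gene Slc1a5 0.35, Aldh18a1 0.45 and Shmt2 0.44. Trib3 was lower in experiment 2 in every group, by a mean of -0.96, as were Ddit3 (-0.65) and Cth (-0.57). Chac1 went the other way, with a mean shift of 0.77. No test was made of these shifts.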
